A study of Mus musculus with 168 samples.

Results

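Mir615 and Mir10b are 2 microRNA genes that lie inside Hox gene clusters, and their levels were followed in mouse cortex across Huntington's disease knock-in genotypes and ages. They are 2 of the 1626 transcripts in the deposited count table, found as the rows whose transcript carries the gene name Mir615 or Mir10b in the GENCODE annotation. Both were selected on measured values of these same libraries: Mir615 on its association with CAG length at 6 and 10 months, and Mir10b as a microRNA set beside it, with its direction at 6 and 10 months known. The contrasts of mutant genotypes with controls are therefore given as descriptions without a test, and tests are given only for comparisons that did not choose the genes.

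Small RNA from the cortex of 168 heterozygous knock-in and wild type (WT) mice of the C57BL/6 strain given in the labels (the lines were crossed to C57BL/6J females) was sequenced, 8 mice (4 female and 4 male) for each of 21 groups of genotype and age. Each knock-in mouse carries 1 normal Htt allele and 1 allele with a human HTT exon 1 whose CAG repeat has the length in its name: Q20, Q80, Q92, Q111, Q140 or Q175. WT mice carry no knock-in allele; those of 2 and 10 months are littermates of the Q20 line, and Q20 and WT served as controls. Mice were 2, 6 or 10 months old. Each CAG length is 1 mouse line, and the Q175 line arose from the Q140 line, so a value of 1 genotype cannot be told apart from a value of its line. At 2 and 10 months, and for the WT mice of 6 months, the library names hold a code shared by mice of a line, age and sex. The labels do not say what it is, and it is read here as the cage. The 4 Q175 females of 10 months shared 1 code and so did the 4 males, while Q20 and WT mice shared theirs with each other. No control carried a Q175 code, so the Q175 genotype cannot be told apart from what its codes stand for. Q92 mice of 10 months carried 4 codes, where each other group with codes carried 2.

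Library totals ranged from 2041741 to 11646287 counts with a median of 4810487, no 2 libraries were identical, and a summed list of 9 neuronal microRNA transcripts (Mir124, Mir128, Mir138 and Mir9 copies) lay between 83280 and 142200 CPM (counts scaled to a common library size by edgeR's TMM factors) in every library. The 8 WT libraries of 6 months stand apart and are described separately below. Their labels follow the form of the 2- and 10-month labels rather than that of the other 6-month labels, all 8 carry the number 3 after the letter L in the library name (the L number, whose meaning the labels do not give), and 177 of 322 microRNAs (55.0%) differed between them and 6-month Q20 libraries (edgeR quasi-likelihood test, FDR 0.05). At 6 months, 11 libraries carry a library code V in place of LB, whose L number repeats the number of the code, and the L numbers of LB libraries differ between most genotypes. Replicates are separate mice. In 2 libraries the sex label differed from that of the other mice with the same code; the sex of the code was used, and the labelled sex changed no call.

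MicroRNAs are short RNAs cut from hairpin precursors, and bases 2 to 8 of the mature strand, the seed, pair with target messages. The Hox clusters hold the transcription factor genes that set position along the body axis, and the microRNA genes embedded in them are best known for expression in the posterior embryo. Adult cortex is an anterior tissue in which Hox genes are mostly silent. Mir10a and Mir10b are close relatives, and members of the Mir196 family are known repressors of Hox messages.

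Mir615 (ENSMUST00000102056) lies on chr15:103014910-103015001 of GRCm38, plus strand, in an intron of Hoxc5 (ENSMUST00000001709), with Hoxc6 ending 3029 bases before it and Hoxc4 starting 3933 bases after it on the same strand. Mir10b (ENSMUST00000083566) lies on chr2:74726070-74726137, plus strand, in introns of transcripts of Hoxd4 and Hoxd3. The mature sequences from RefSeq (GRCm38.p6) are given because the table counts reads per hairpin transcript and does not say from which part of the hairpin a read came. Seeds are in capitals.
miR-615-3p: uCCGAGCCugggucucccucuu
miR-615-5p: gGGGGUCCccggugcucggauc
miR-10b-5p: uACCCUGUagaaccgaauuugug
miR-10b-3p: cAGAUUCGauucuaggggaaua
miR-10a-5p: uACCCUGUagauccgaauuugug

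Neither seed of Mir615 was shared with another of the 1738 mature mouse entries. The seed of miR-10b-5p was shared with miR-10a-5p alone, and the 2 sequences differ by A12U, counted from the 5′ end with the miR-10b-5p base first. The deposited counts of Mir615 and Mir10b were whole numbers in all 168 libraries, whereas those of Mir10a were not whole in 64.

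Of a list of 6 Hox-cluster microRNA genes, Mir10b and Mir10a were well covered, Mir615 was sparse and the Mir196 genes were nearly undetected. Mir10b had a mean of 1257 counts per library (294 to 6797) and Mir10a held 391 to 4184 counts. Mir615 had a mean of 4.94 counts, a maximum of 28, and at least 1 count in 163 of 168 libraries. Mir196a-1, Mir196a-2 and Mir196b had 14, 7 and 42 counts over all libraries together, and were not among the microRNAs tested. The precision therefore differs greatly between the members. By library total alone, without the TMM factor, a single count of Mir615 was worth 0.0859 to 0.49 CPM depending on the library. On that scale the 5 libraries with 0 counts allow up to 3 counts, or 0.57 to 0.825 CPM. For Mir615 the variance of the counts divided by their mean had a median of 1.16 over the 20 groups other than 6-month WT, where 1 is counting error alone. For Mir10b this median was 66.9, so the spread of Mir10b came mostly from differences between libraries. Intervals quoted for summed counts cover counting error only.

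At 10 months Mir615 was higher in the Q175 mice than in every other mouse of that age. The 8 Q175 libraries held 10 to 28 counts, and their levels were 2.22, 2.80, 2.90, 3.06, 4.40, 4.42, 5.22 and 6.35 CPM. The lowest, median and highest of the 16 control libraries (1 to 9 counts) were 0.214, 0.762 and 1.93 CPM, and those of the 32 libraries from Q80 to Q140 were 0.39, 0.986 and 1.78 CPM. The Q175 range lay above both other ranges with no overlap. Among the 327 microRNAs of that contrast, 3 (0.917%) were higher in all Q175 libraries than in all controls, a contrast that was used to select Mir615. The fitted change from the controls was 2.21 ± 0.25 (log2 ± SE), or 4.62-fold. Over their summed library totals, without TMM factors, the 8 Q175 libraries held 150 counts, or 3.76 CPM (exact Poisson interval 3.18 to 4.41). On that scale WT held 0.695 CPM (0.445 to 1.03) and Q20 0.933 CPM (0.638 to 1.32).

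**Figure D1:**
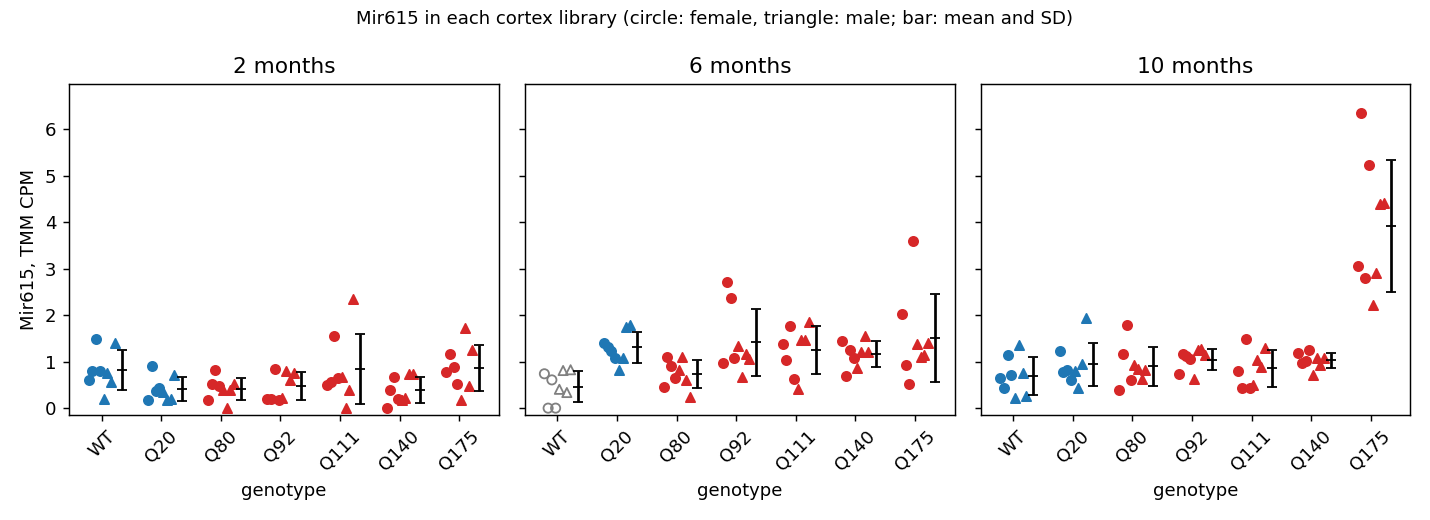
Mir615 in TMM-scaled CPM (vertical axis) by genotype (horizontal axis) at 2, 6 and 10 months. Each circle is 1 female and each triangle 1 male library, blue marks controls and red mutant genotypes, open grey marks the 6-month WT libraries, and the bars are the mean and SD of 8. At 10 months the Q175 libraries lie between 2.22 and 6.35 CPM, above all others of that age, which reach 1.93 CPM.

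The other mutant genotypes at 10 months did not stand out from the controls. Mean Mir615 levels at 10 months were 0.69 ± 0.404 CPM (SD, n = 8) in WT, 0.855 ± 0.398 in Q111, 0.897 ± 0.426 in Q80, 0.941 ± 0.463 in Q20, 1.03 ± 0.165 in Q140, 1.05 ± 0.233 in Q92 and 3.92 ± 1.42 in Q175. Each of these groups overlapped its neighbour in the order except the last pair, whose means were 2.87 CPM apart. Fitted log2 changes from the controls were 0.14 ± 0.31 for Q80, 0.34 ± 0.28 for Q92, 0.05 ± 0.32 for Q111 and 0.32 ± 0.27 for Q140. Fitted as a number over all 7 genotypes, with 7 repeats for WT, CAG length had a slope of 1.31 ± 0.18 (log2 per 100 repeats) at 10 months, and without the Q175 libraries the slope was 0.24 ± 0.19. The 10-month slope of Mir615 therefore rested on the Q175 group.

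The excess in Q175 was present in each L number and in both sexes. That Q175 lies above the controls in every split follows from the ranges over all libraries of the oldest mice, which do not overlap. The splits by L number and by sex are therefore no separate check of the excess, and their values are descriptions. At L number 6 the 3 Q175 libraries held 2.22 to 6.35 CPM and the 7 controls 0.214 to 1.36 CPM. At L number 7 the 4 Q175 libraries held 2.80 to 4.42 CPM and the 4 controls 0.433 to 0.943 CPM. At L number 8 the single Q175 library stood at 5.22 CPM, and the 5 controls held 0.26 to 1.93 CPM. Q175 females held 2.80 to 6.35 CPM against 0.433 to 1.23 CPM in control females, and Q175 males 2.22 to 4.42 CPM against 0.214 to 1.93 CPM in control males. Whether the Q175 change differed between the sexes did not choose the genes and was tested as an interaction: the difference (female minus male, log2) was 0.46 ± 0.52 with a 95% interval of -0.61 to 1.53 for Mir615 (adjusted p = 1.0) and 0.63 ± 0.40 with an interval of -0.20 to 1.45 for Mir10b (adjusted p = 0.738). In this interaction 0 of 327 microRNAs (0%) passed with edgeR and 0 with DESeq2, with an unadjusted p under 0.05 for 21.

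Summed marker lists of the 10-month Q175 libraries overlapped those of the controls. Medians were lower in Q175 for choroid plexus and ciliated cells, neurons (103100 against 110400 CPM) and erythrocytes (2508 against 2564 CPM). They were higher for vascular cells (19500 against 17870 CPM), oligodendrocytes (4826 against 4527 CPM) and immune cells (215 against 191 CPM). The list of choroid plexus and ciliated cells held 3371, 3613 and 3961 CPM (lowest, median and highest) in Q175 and 3372, 4545 and 13730 CPM in controls, and Mir448 of that list 9.97 to 21.99 CPM against 15.1 to 127 CPM. Its members did not all move the same way. The median of Mir211 was 6.67 CPM in Q175 against 5.99 CPM in controls, and that of Mir449a 2.93 against 2.38 CPM. The neuronal list held 97490 to 110100 CPM against 102600 to 119200 CPM, and the vascular list 16380 to 21840 CPM against 16860 to 24020 CPM. For oligodendrocytes the sums were 4491 to 4994 CPM against 3578 to 5177 CPM, for erythrocytes 2098 to 2711 CPM against 2207 to 2959 CPM, and for immune cells 188 to 237 CPM against 174 to 344 CPM. Their part in the levels of Mir615 and Mir10b in Q175 was not tested.

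**Figure D2:**
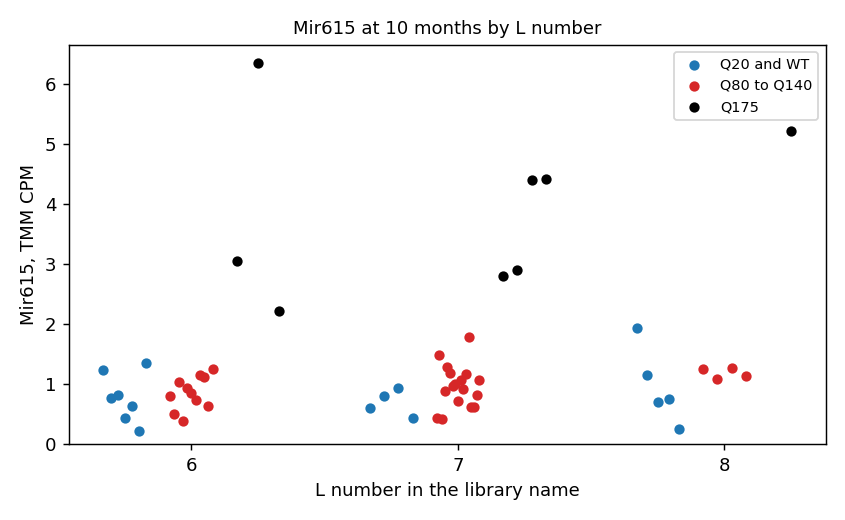
Mir615 at 10 months in TMM-scaled CPM (vertical axis) for the libraries of each L number (horizontal axis), each point 1 library. At L numbers 6, 7 and 8 the 3, 4 and 1 Q175 libraries (black) lie above every control (blue) and every Q80 to Q140 library (red) of that number. This order follows from the ranges over all 10-month libraries, which do not overlap.

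At 2 months, in libraries that did not enter the association at 6 and 10 months on which Mir615 was selected, no difference of Mir615 in Q175 or with CAG length was detectable. Group means ran from 0.389 to 0.87 CPM and every group overlapped its neighbour in the order. The highest was Q175 with 0.87 ± 0.496 CPM (1 to 10 counts), followed by Q111 with 0.834 ± 0.75 and WT with 0.825 ± 0.43. Q92 stood at 0.473 ± 0.302, Q20 at 0.413 ± 0.267, Q80 at 0.411 ± 0.247 and Q140 at 0.389 ± 0.289 CPM. Compared with controls, Q175 gave a log2 change of 0.45 ± 0.36 with a 95% interval of -0.29 to 1.20 (adjusted p = 0.836). The interval at 2 months lies below the 2.21 of the 10-month fit (interval 1.70 to 2.72). That fit is of the contrast that selected Mir615, so setting the 2 ages side by side is a description. The slope on CAG length was 0.12 ± 0.23 per 100 repeats (interval -0.35 to 0.59, adjusted p = 0.999). The log2 changes of the other mutant genotypes from controls, which are descriptions, were -0.54 ± 0.41 for Q80, -0.39 ± 0.40 for Q92, 0.29 ± 0.43 for Q111 and -0.64 ± 0.44 for Q140. In both tests 0 of 327 microRNAs (0%) passed with edgeR and 0 with DESeq2; the unadjusted p was under 0.05 for 19 in the Q175 test and for 13 on CAG length. The difference between the 10- and 2-month Q175 changes, which holds the contrast that selected Mir615, was 1.78 ± 0.44 (log2).

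At 6 months the Mir615 levels of Q175 mice overlapped those of all other knock-in groups. Levels over the 48 knock-in libraries had a lowest, median and highest value of 0.245, 1.13 and 3.61 CPM, against 0, 0.523 and 2.35 CPM over the 56 libraries of 2 months. Means were 0.735 ± 0.304 CPM in Q80, 1.16 ± 0.288 in Q140, 1.25 ± 0.514 in Q111, 1.31 ± 0.333 in Q20, 1.42 ± 0.721 in Q92 and 1.51 ± 0.948 in Q175. The Q175 mean was carried by 1 female at 3.61 CPM (15 counts), beside which the other 7 held 0.523 to 2.02 CPM. The log2 change from Q20 was 0.22 ± 0.35 for Q175 and -0.86 ± 0.31 for Q80. Q20 had no V library, so with the library code in the fit these 2 changes rest on LB libraries (5 of Q175 and 6 of Q80). The slope on CAG length was 0.11 ± 0.19 per 100 repeats and -0.10 ± 0.25 without Q175. Q80 and Q175 LB libraries with L numbers 1 and 2 had medians of 0.628 (6 libraries) and 1.15 CPM (5 libraries) with overlapping ranges, while Q20 libraries carry 3 and 4, so at 6 months genotype and L number cannot be told apart for these groups.

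**Figure D3:**
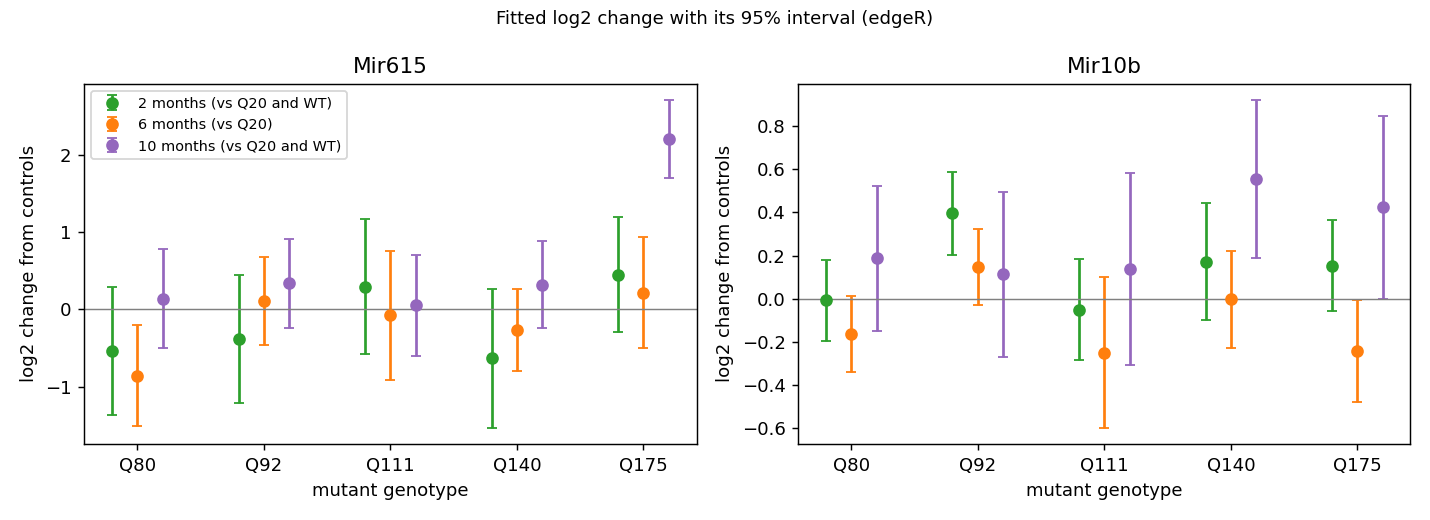
Fitted log2 change of Mir615 (left) and Mir10b (right) in each mutant genotype (horizontal axis) from the controls of the same age. Controls are Q20 and WT at 2 and 10 months and Q20 alone at 6 months. At 6 months the changes of Q80, Q111, Q140 and Q175 rest on their LB libraries. Points are edgeR estimates (green 2, orange 6 and purple 10 months) and bars 95% intervals; for Mir615 Q175 at 10 months stands at 2.21, and for Mir10b the highest points are Q140 at 10 months (0.56) and Q175 at 10 months (0.42).

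Mir10b was read at much greater depth than Mir615. Its 10-month log2 change was smaller than that of Mir615 in Q175 (0.42 against 2.21), the contrast that selected Mir615. In Q140 the change of Mir10b was larger (0.56 against 0.32). At 10 months its mean level was 154 ± 34.6 CPM (SD, n = 8) in WT, 178 ± 61.9 in Q92, 184 ± 83.9 in Q111, 185 ± 74.5 in Q20, 187 ± 36.9 in Q80, 223 ± 75.7 in Q175 and 241 ± 59.6 in Q140. Every group overlapped its neighbours in this order. The 8 Q175 levels were 74.2, 192, 196, 207, 230, 277, 291 and 315 CPM. The 16 controls had a lowest, median and highest level of 75.2, 158 and 268 CPM, so the ranges overlapped; 3 of the 8 Q175 libraries lay above every control and 1 below. The log2 change from the controls was 0.42 ± 0.20 for Q175 and 0.56 ± 0.18 for Q140, and 0.11 ± 0.19 for Q92, 0.14 ± 0.21 for Q111 and 0.19 ± 0.16 for Q80. The slope on CAG length was 0.30 ± 0.11 per 100 repeats with the Q175 libraries and 0.34 ± 0.14 without them.

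For Mir10b the Q175 difference was not the same in every split of the 10-month libraries. At L number 6 the 3 Q175 libraries held 192 to 315 CPM and the 7 controls 75.2 to 258 CPM. At L number 7 the 4 Q175 libraries held 74.2 to 291 CPM and the 4 controls 141 to 268 CPM, and the mean log2 difference was -0.05 against 0.80 at L number 6. Among females, 3 of 4 Q175 libraries lay above all controls (the fourth was at 74.2 CPM; control females reached 171 CPM), whereas among males the Q175 range of 192 to 291 CPM lay over a control range of 125 to 268 CPM.

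At 6 months Mir10b means of the knock-in groups ran from 209 ± 37.6 CPM in Q175 and 213 ± 50.4 in Q111 to 257 ± 35.5 in Q92. Q175 held 174, 190 and 276 CPM (lowest, median and highest), Q20 171, 244 and 279 CPM, and Q92 220, 248 and 299 CPM. The log2 change from Q20 was -0.24 ± 0.11 for Q175 and -0.25 ± 0.16 for Q111. It was -0.16 ± 0.08 for Q80, 0.00 ± 0.11 for Q140 and 0.15 ± 0.08 for Q92. Q20 had no V library, so with the library code in the fit these changes rest on LB libraries. Those were 5 for Q175, 4 for Q111 (all female), 6 for Q80, 6 for Q140 and 8 for Q92. Q175 had opposite signs at 6 months, against Q20 alone, and at 10 months, against Q20 and WT. Q175 LB libraries of 6 months carry L numbers 1 and 2 and Q20 libraries 3 and 4, so genotype and L number cannot be told apart there. The slope on CAG length was -0.14 ± 0.07 per 100 repeats, and -0.03 ± 0.10 without Q175. All neighbouring groups overlapped.

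At 2 months Q92 mice had the highest Mir10b, with 268, 318 and 430 CPM (lowest, median and highest), against 182, 241 and 322 CPM in the 16 controls, a log2 change of 0.40 ± 0.09. That contrast was known when the genes were chosen and is a description. Means of the other groups ran from 244 ± 58.1 CPM in Q111 to 282 ± 80.6 CPM in Q140, and all neighbouring groups overlapped. The test of Q175 against controls at 2 months gave 0.15 ± 0.10 (interval -0.06 to 0.37, adjusted p = 0.786), and the slope on CAG length was 0.10 ± 0.08 per 100 repeats (interval -0.05 to 0.25, adjusted p = 0.841). No difference of Mir10b with CAG length was detectable in the youngest mice.

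**Figure D4:**
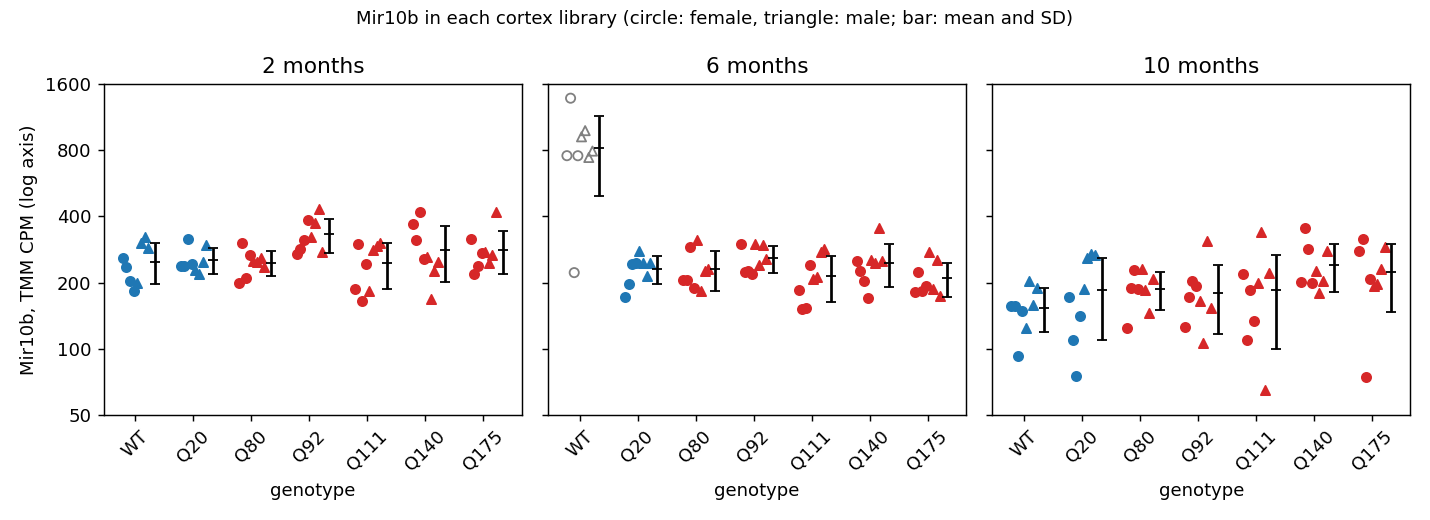
Mir10b in TMM-scaled CPM (vertical log axis) by genotype (horizontal axis) at 2, 6 and 10 months. Circles are females, triangles males, blue controls, red mutant genotypes, open grey the 6-month WT libraries, and bars the mean and SD of 8. The 6-month WT libraries reach 1374 CPM, and 7 of them lie above every other library of the series.

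Age was a comparison that did not choose the members, and here Mir10b fell. In controls the lowest, median and highest levels were 182, 241 and 322 CPM at 2 months and 75.2, 158 and 268 CPM at 10 months (16 libraries each). The ranges overlapped, and the log2 change from 2 to 10 months was -0.60 ± 0.12 (interval -0.85 to -0.35, adjusted p = 1.2e-04). The fall was present in WT (-0.71, adjusted p = 8.4e-04) and in Q20 (-0.57, adjusted p = 0.033) fitted alone. Nearly as many microRNAs moved with age as did not: 162 of 328 (49.4%) passed, 86 higher and 76 lower at 10 months. Mir10a, the relative with the same seed, had a log2 change of 0.13 ± 0.12 (adjusted p = 0.411) with medians of 151 and 173 CPM. The log2 level of Mir10b minus that of Mir10a within a library had a median of 0.81 in the 2-month and -0.13 in the 10-month controls. Most libraries of the 2 ages carry different L numbers, so age and L number cannot be told apart. Of 3 vascular microRNAs measured alongside, Mir143 fell by 0.44 on the log2 scale (adjusted p = 1.4e-05), Mir145a changed by -0.04 (adjusted p = 0.720) and Mir126a by 0.00 (adjusted p = 0.991). Of the other marker lists, 4 of 8 neuronal, 1 of 2 oligodendrocyte, 1 of 1 erythrocyte (Mir144, by 0.29), 1 of 2 immune and 4 of 8 choroid plexus and ciliated cell microRNAs were higher at 10 months, and 1 immune and 3 choroid plexus and ciliated cell microRNAs were lower. The part of these cell types in the fall of Mir10b was not tested.

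Mir615 did not change detectably with age in controls. Levels were 0.172, 0.58 and 1.49 CPM (lowest, median and highest) at 2 months and 0.214, 0.762 and 1.93 CPM at 10 months, and the log2 change was 0.38 ± 0.30 (interval -0.22 to 0.98, adjusted p = 0.296). The 2 control genotypes differed in direction. Alone, WT gave -0.28 (adjusted p = 0.639) and Q20 1.09 (adjusted p = 0.037), and the difference of 1.38 ± 0.56, tested after these values were seen, did not pass over all microRNAs (adjusted p = 0.670). Q20 mice of 2 months held 1 to 5 counts each.

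Female and male controls, and Q20 and WT controls of 2 and 10 months, were compared as further checks. Mir10b was lower in control females (75.2, 177 and 315 CPM; 16 libraries) than in males (125, 238 and 322 CPM; 16 libraries) by a log2 difference of -0.39 ± 0.12, which did not pass over all microRNAs (adjusted p = 0.259). The gap between the means was widest in 10-month Q20 mice, where the 4 females held 75.2 to 171 CPM and the 4 males 187 to 268 CPM. Once the 2 libraries with a differing label were given the sex of their code, each code read as a cage held a single sex. Sex therefore cannot be told apart from what the code stands for. In 2-month Q20 mice the means lay the other way, 258.5 ± 37.5 CPM in females and 248 ± 35.1 CPM in males. For Mir615 the female minus male difference was 0.09 ± 0.30 (adjusted p = 0.966). Of 328 microRNAs 0 (0%) passed for sex with edgeR and with DESeq2, while for 16 the unadjusted p was under 0.05. WT minus Q20 was 0.98 ± 0.41 for Mir615 at 2 months (adjusted p = 0.851) and -0.40 ± 0.39 at 10 months (adjusted p = 0.834), and -0.03 ± 0.12 (adjusted p = 0.947) and -0.18 ± 0.18 (adjusted p = 0.834) for Mir10b. Of 326 and 325 microRNAs, 0 (0%) passed at either age with either tool; unadjusted p-values under 0.05 numbered 14 at 2 months and 12 at 10 months.

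In the 6-month WT libraries the members moved in opposite directions from 6-month Q20. Mir10b was 222, 739, 753, 753, 790, 918, 979 and 1374 CPM in the 8 WT libraries and 171 to 279 CPM in the 8 Q20 libraries. All but 1 WT female lay far above the Q20 range, and that female lay inside it. The log2 difference was 1.86 ± 0.25, or 3.63-fold (adjusted p = 9.1e-06), and 2.00 without that female. Mir615 held 0 to 4 counts in the WT libraries (0, 0, 0.336, 0.405, 0.608, 0.739, 0.809 and 0.826 CPM) and 4 to 9 counts in the Q20 libraries (0.824 to 1.78 CPM), so the ranges barely touched. For the 2 WT libraries at 0 the limit is 0.611 and 0.708 CPM by library total alone. The TMM factors of these 2 libraries raise their levels, so on the TMM scale the limits lie higher, nearer to the Q20 range. The log2 difference was -1.40 ± 0.37 (adjusted p = 0.0041), and with L number 3 alone it was -1.36 with an adjusted p of 0.099. At L number 3 the Q20 side held only part of the males and no female, against all 8 WT libraries. Mir10a was also higher in these WT libraries, by 0.61 ± 0.12 (adjusted p = 3.6e-04), with 183, 214 and 325 CPM (lowest, median and highest) against 134, 140 and 210 CPM. Of the 3 tested genes in the Hox list, 2 were thus higher and 1 lower, where 55.0% of all microRNAs passed.

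Cell type markers moved with these libraries as well. Of the vascular list (3 of 3 measured, none at 0), the summed level was 22510 to 52520 CPM in 6-month WT and 34530 to 41730 CPM in Q20. Mir145a was higher by 0.66 ± 0.08 (adjusted p = 3.9e-06), Mir143 differed by 0.16 (adjusted p = 0.507) and Mir126a by 0.07 (adjusted p = 0.244). The WT female with the low Mir10b also had the lowest Mir143, 11890 CPM, where the other 7 held 23720 to 42590 CPM. Of the other lists, as tested against Q20, 2 of 8 neuronal microRNAs were higher and 3 lower, 1 of 2 oligodendrocyte and 1 of 2 immune microRNAs were lower, the 1 tested of the erythrocyte list (Mir144) was higher by 0.34, and 0 of 8 of choroid plexus and ciliated cells passed. The summed erythrocyte list was 2855 to 8410 CPM in WT and 3249 to 3861 CPM in Q20, and the immune list 397 to 488 CPM against 721 to 1069 CPM. Their part in the values of Mir10b and Mir615 was not tested, and genotype cannot be told apart from whatever else set these libraries apart.

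Mir10b differed with the library code within the knock-in mice of 6 months. The 11 V libraries had a lowest, median and highest level of 182, 275 and 355 CPM and the 37 LB libraries 151, 225 and 299 CPM. With genotype and sex in the fit, V libraries were higher by 0.32 ± 0.08 (log2; adjusted p = 0.022), 1 of 6 microRNAs of 327 (1.83%) that passed. Mir615 differed by 0.24 ± 0.23 (adjusted p = 0.670). The V libraries came from Q80 (2), Q111 (4, all male), Q140 (2) and Q175 (3). The code was a covariate of the 6-month contrasts above, and Q20 held no V library. The changes of these genotypes from Q20 therefore rest on their LB libraries.

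Across libraries Mir10b varied together with Mir10a. Pearson's r of log2(CPM + 0.5) was 0.42 over the 56 libraries at 2 months, 0.43 over 48 at 6 months and 0.43 over 56 at 10 months (adjusted p = 0.0038 for each over 6 relations, permutation test), and Spearman's rho was 0.44, 0.43 and 0.48 (adjusted p = 0.0021, 0.0040 and 8.4e-04). Without the 2 libraries farthest from the median of Mir10a, r was 0.51, 0.41 and 0.40. Within single L numbers r was 0.74 (15 libraries), 0.58 (26) and -0.19 (9) for L numbers 1, 2 and 3 at 2 months, and 0.71 (21), 0.17 (25) and 0.44 (10) for L numbers 6, 7 and 8 at 10 months. The 4 L numbers with 6 libraries at 6 months gave values from -0.64 to 0.71. The relation thus did not hold within every L number. Values of the 2 genes in a library share its depth and scaling.

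**Figure D5:**
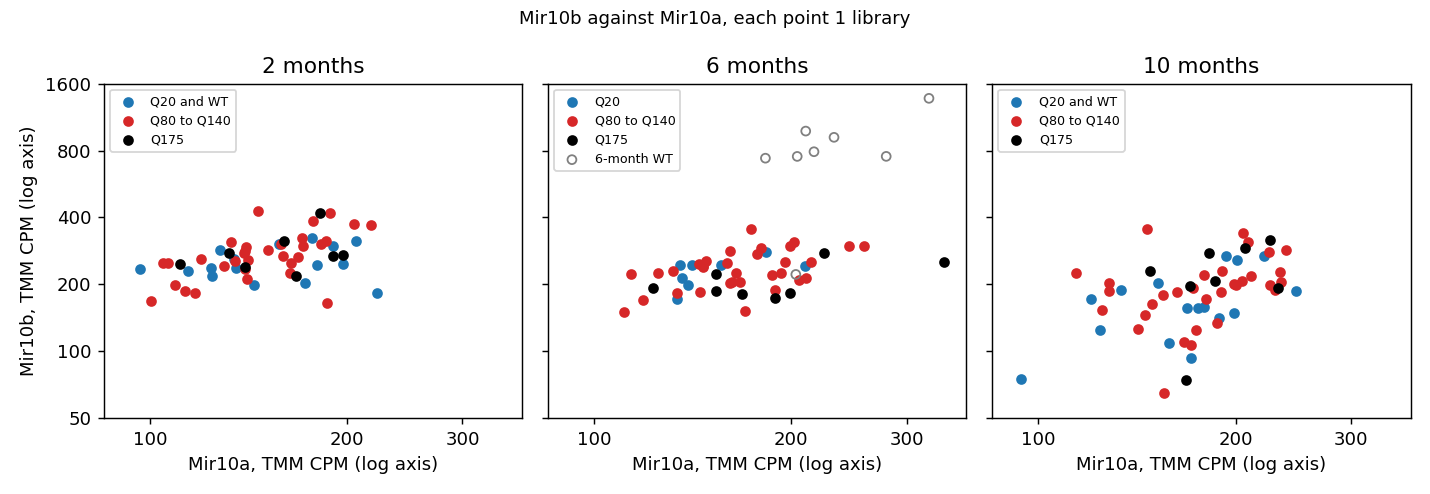
Mir10b (vertical log axis) against Mir10a (horizontal log axis), both in TMM-scaled CPM, each point 1 library (blue controls, red Q80 to Q140, black Q175, open grey 6-month WT), at 2, 6 and 10 months. Of the 8 open 6-month WT points, 7 lie above the cloud of the other libraries at like Mir10a levels.

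Between Mir10b and Mir615 no correlation was detectable at 2 or 6 months, and a weak positive one was measured at 10 months. Pearson's r was -0.05 at 2 months (Spearman's rho -0.04; adjusted p = 0.743 and 0.767, permutation test) and -0.05 at 6 months (rho -0.06; adjusted p = 0.743 and 0.767). At 10 months the Q175 libraries formed a separate cluster in Mir615, so no r is given over the uncorrected levels of all 56. With the mean of each genotype subtracted, r was 0.30 (adjusted p = 0.036) and rho 0.35 (adjusted p = 0.013, permutation test). In the 48 libraries without Q175, r was 0.31 (p = 0.031) and rho 0.38 (p = 0.0084, permutation test). Within L numbers 6, 7 and 8 r over all genotypes was 0.46, 0.21 and 0.23. Those L number values are of uncorrected levels with the Q175 libraries included, so the separate cluster enters them as well. The 48 libraries without Q175 hold 1 to 9 counts of Mir615 each, and at this depth the correlation is given as a description.

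The microRNAs whose pattern was most like that of each member were found over the 160 libraries without 6-month WT, after the mean of each age (at 6 months of each code) was subtracted. For Mir10b they were Mir145a (Spearman's rho 0.61), Mir10a (0.43) and Mir143 (0.39), among 263 microRNAs with at least 10 counts on average. Mir145a and Mir143 are known from vascular smooth muscle. For Mir615 they were Mir99a (0.35), Mir26a-2 (0.31) and Mir195a (0.29) among 264, and Mir10b ranked 51 with 0.15. Mir195a was at 445, 543 and 681 CPM (lowest, median and highest) in 10-month Q175 mice and at 351, 430 and 502 CPM in the controls. These correlations are descriptions over libraries that share normalization and genotype.

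Among the Hox-cluster list as a whole, only Mir10a could be read as a gene that the selection did not involve. In the 10-month contrast of Q175 with controls its log2 change was 0.14 ± 0.13 (adjusted p = 0.545), where 40 of 327 microRNAs (12.2%) passed, and on CAG length it was 0.08 ± 0.07 per 100 repeats (adjusted p = 0.516), where 29 of 328 (8.84%) passed. Mir10a levels in 10-month Q175 mice were 148, 184 and 232 CPM (lowest, median and highest) and 94.0, 173 and 247 CPM in controls. At 2 months its slope on CAG length was -0.02 ± 0.07 (adjusted p = 0.999). Of the 9 comparisons with a test, Mir10b passed 3, Mir10a 1 and Mir615 1; the one all 3 passed was 6-month WT against Q20.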

How the data were processed

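After adapter clipping and STAR alignment, the authors deposited estimated counts by Ensembl transcript without normalization. Base calling used CASAVA 1.8.2 per the labels. Of the estimated counts above 0, 48.1% were not whole, so counts were rounded. The methods name HTSeq gene counts. A deposited FPKM table was not used. Transcripts were named with GENCODE vM21 (GRCm38, the mm10 of the methods).

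MicroRNAs of the study's S4 list with at least 1 count in a fit were tested by edgeR 4.0.16 in R 4.3.3 (TMM, robust quasi-likelihood F test, two-sided, Benjamini-Hochberg over all of them, FDR 0.05), with sex (of the code read as the cage) as covariate and, at 6 months, the library code. The SE came from the coefficient and its F statistic. Correlations used 100000 permutations. Code was tested on simulated counts. Alternatives are RLE, library size alone, DESeq2 1.42.0, other feature filters, labelled sex, L number, replicate block and left-out libraries. The members and lists were chosen with earlier results of these data known. Named genes are the members, the Hox list, the 3 microRNAs most like each member, and marker list members. Replicate numbers only name mice and tie no animals of different groups.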

Additional observations from a re-analysis of the deposited data

Results flagged for a closer look

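In the 6-month Q140 group 1 male library held Mir10b at 355.3 CPM, where the next highest was 252 CPM. Its gap made up 0.555 of the group's range, above Dixon's critical value for 8 samples. That library carries the V code. It was the only such case among the 42 sets of 8 libraries (Mir615 and Mir10b in 21 groups), of which chance alone would flag about 1 in 20.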

How the results depend on the processing

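Of 475 recomputed values, 465 counted as unchanged. Tested values among them kept their direction and their side of the FDR. Values without a test moved by less than 1 SD between mice, and counts stayed within 1.5 times. A value without a test could change sign, as the 6-month slope of Mir615 did without Q175 (0.11 to -0.10). The 465 include all values under RLE, DESeq2, filterByExpr, the labelled sex and L number as covariate. The filterByExpr setting dropped Mir615 from most fits. The rest of the recomputed values follow, and the cause was not tested unless fewer libraries show it. The 6-month V against LB count of 6 was 22 with library size alone and 10 with all transcripts. With the 6-month WT libraries added, Mir10b in Q175 at 6 months was -1.48 and its slope -0.95, and Mir615 in Q175 was 0.69. Without Q175 the 10-month slope of Mir615 was 0.24. Alternatives added after seeing the data gave Mir615 an age change of -0.28 in WT alone and 1.09 in Q20 alone (adjusted p = 0.037), and -1.36 for 6-month WT against Q20 at L number 3 (adjusted p = 0.099). The 2-month r of Mir10b with Mir615 was 0.0054 with genotype means subtracted. Leaving out each Q175 library at 10 months gave 2.07 to 2.29 for Mir615 and 0.28 to 0.54 for Mir10b; leaving out each 6-month WT library gave -1.53 to -1.24, 1.67 to 2.00 and 163 to 195 microRNAs. Same-numbered libraries did not deviate together (median correlation 0.04, -0.14 and 0.00 at 2, 6 and 10 months), and the replicate block, with 2.22 for Mir615 in Q175 at 10 months, changed no call. Depth limits Mir615 throughout.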
